A study of Sus scrofa with 10 samples.

Results

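The right ventricle pumps blood through the lungs, and its muscle draws most of its energy from long-chain fatty acids. These acids are taken up and bound in the cell, joined to coenzyme A, carried into mitochondria on carnitine and shortened there by beta-oxidation. Entry on carnitine is the controlled step: malonyl-CoA, made by acetyl-CoA carboxylase and removed by malonyl-CoA decarboxylase, inhibits carnitine palmitoyltransferase 1. The genes described here are 41 genes of this route, taken from a list of symbols and ordered by step. Of these, 40 were found in the deposited table, among 12378 genes with a symbol and 3260 without one. ACOT2, a mitochondrial thioesterase gene, found no match by symbol and was left out.

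RNA was sequenced from right ventricular biopsies of 5 pigs with CTEPH and of 5 Sham pigs. CTEPH stands for chronic thromboembolic pulmonary hypertension, a disease of obstructed lung arteries that loads the ventricle with pressure. Each pig gave 1 library: the CTEPH libraries carry the names s1, s3, s4, s5 and s9, and the Sham libraries s2, s6, s7, s8 and s10. How CTEPH was produced, and the breed, sex, age, feeding state and time after surgery, are not stated in the sources available. Values are deposited log2 values, which have nearly the same distribution in all libraries, and every difference below is CTEPH minus Sham on that scale.

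The relative depth of the libraries, read from whole counts recovered from the low values, ranged from 0.725 to 1.54. It was 1.05 ± 0.301 in CTEPH libraries and 1.01 ± 0.302 in Sham libraries (± SD of n = 5; two-sided exact permutation p = 0.833). Heart muscle RNA was present in all libraries, while the label of the right ventricle was not tested. Of 15 cardiomyocyte markers 12 were measured. The summed level of the 12 was 21.6 to 21.9 in CTEPH and 21.4 to 21.9 in Sham on the log2 scale. Of these 12, 1 was called higher and 0 lower.

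The design asks which transcripts differ between the loaded and the control ventricle. Most of the fatty acid route was not called: 1 of the 40 genes passed an adjusted p of 0.05 (a limma test, with the Benjamini-Hochberg adjustment, BH, over all genes), against 4.62% of all genes, and it was lower in CTEPH, where 1.79% of all genes were called lower. That gene was ACACB, the carboxylase of the mitochondrial outer membrane. At an unadjusted p under 0.05 there were 8 of 40 genes, 4 higher and 4 lower, against 20.3% of all genes (9.84% higher and 10.5% lower), so this count is near the background and says nothing particular of the route. It was 3 to 5 without CTEPH library s3 or s5 or Sham library s2, s6, s8 or s10. The median difference over the 40 genes was -0.01, beside -0.03 over all genes. Centred on the cardiomyocyte markers, all genes called split into 439 higher and 131 lower, against 443 and 280 without centring. The genes of the route at an unadjusted p under 0.05 then split into 6 higher and 1 lower. The shift itself was small: with centring the median difference was 0.0076 over all genes and 0.028 over the 40 genes. Why the lower calls became fewer was not tested.

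The intervals bound how large an uncalled difference could be. In 33 of the 40 genes the 95% interval of the difference lay within a 2-fold change in either direction (82.5%, beside 67.1% of all genes). In 18 it lay within a 1.5-fold change (45.0%, beside 31.5% of all genes). The 40 genes were not matched to all genes by expression level, so these shares do not show a steadier route. The standard errors (SE) of the 40 differences ran from 0.12 to 0.78, with a median of 0.18, beside 0.22 over all genes. The widest intervals belonged to genes with few reads, such as UCP3, SLC27A6 and ACSL6.

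**Figure D1:**
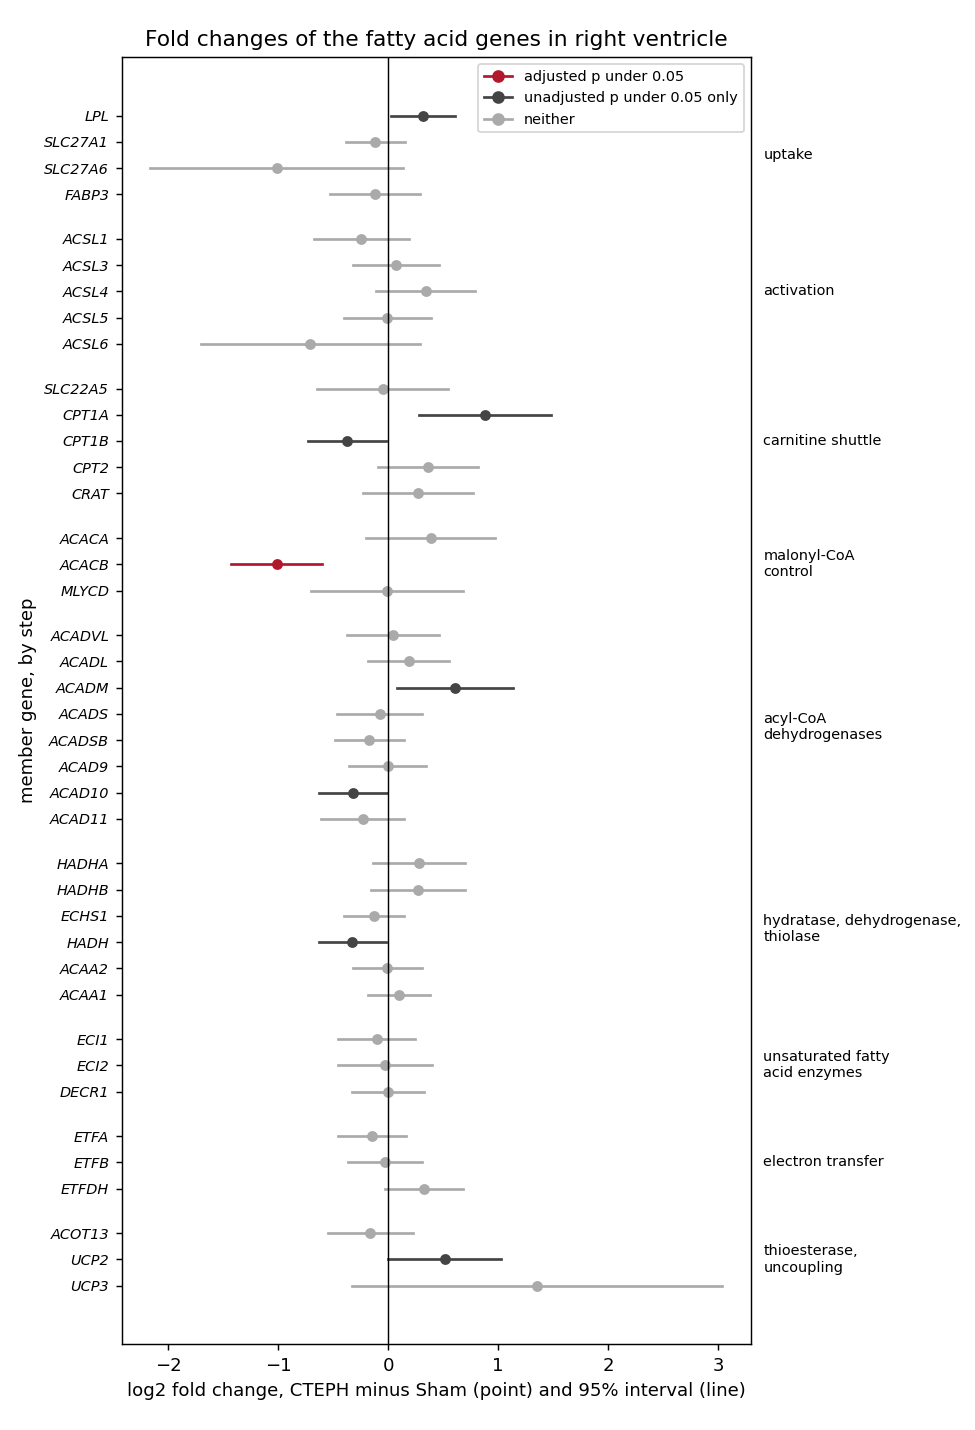
Log2 fold change (CTEPH minus Sham, horizontal axis) of each of the 40 genes, grouped by step down the page, with its 95% interval as a line. The interval of ACACB (red, adjusted p under 0.05) lies farthest from 0 of the 40, at -1.43 to -0.60, and 7 more genes in dark grey have an unadjusted p under 0.05.

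Control of entry by malonyl-CoA held the called gene. ACACB encodes acetyl-CoA carboxylase 2, whose malonyl-CoA acts on carnitine palmitoyltransferase 1 at the mitochondrial surface. On Sscrofa11.1 its gene spans chromosome 14 from 41621574 to 41739916. Its log2 values were 13.66, 12.76, 12.51, 13.13 and 13.00 in CTEPH libraries s1, s3, s4, s5 and s9, against 13.96, 14.30, 14.02, 13.99 and 13.87 in Sham libraries s2, s6, s7, s8 and s10. All 5 CTEPH libraries lay below every Sham library, with s1 nearest to them. The groups did not overlap in this gene alone of the 40, with CTEPH below, against 6.57% of all genes (3.7% with CTEPH above and 2.87% with CTEPH below).

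ACACB averaged 13.01 ± 0.43 in CTEPH libraries and 14.03 ± 0.16 in Sham libraries (± SD of n = 5), so it fell by 1.02 ± 0.19 (SE; limma, BH, adjusted p = 0.00938), to 49.5% of the Sham level on this scale. It remained called in each of the 10 refits that left out 1 library, with adjusted p of 8.7e-04 to 0.0287 and differences of -1.18 to -0.89 (BH-adjusted limma test). In bulk tissue, fewer cells of a type and less RNA per cell cannot be told apart.

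Some markers of fat cells were also lower in CTEPH. Of 9 adipocyte markers 7 were measured, 0 were called higher and 3 were called lower: the lipid droplet genes PLIN4 (-1.12 ± 0.27) and CIDEA (-1.22 ± 0.28) and the adipsin gene CFD (-1.26 ± 0.30; SE; limma, BH, adjusted p = 0.0329, 0.0280 and 0.0294). The summed level of the 7 was 14.0 to 14.6 in CTEPH and 14.3 to 15.0 in Sham, and none was at 0. This sum of linear values is set mostly by FABP4 and by PLIN4, which averaged 12.25 in CTEPH and 13.37 in Sham. It is therefore not a measure of the amount of fat cells. The adiponectin gene ADIPOQ, a defining marker, was low in both groups at 4.57 ± 1.22 in CTEPH libraries and 5.11 ± 1.73 in Sham libraries (± SD of n = 5; limma, BH, adjusted p = 0.752). The fatty acid binding protein gene FABP4 had the highest mean deposited value of the 7 in CTEPH. It was at 13.61 ± 0.42 in CTEPH libraries and 13.16 ± 0.33 in Sham libraries (± SD of n = 5). This difference, of the other sign, was 0.44 ± 0.21 and did not pass (SE; limma, BH, adjusted p = 0.262). CTEPH libraries s1, s5 and s9 were above every Sham library in FABP4. The part of fat cells in the ACACB difference was not tested. The ACACB difference was -0.98 when each library was centred on the cardiomyocyte markers (limma, BH, adjusted p = 0.0331).

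The other genes of malonyl-CoA control were not called. ACACA, the cytosolic carboxylase of fatty acid synthesis, averaged 10.55 ± 0.63 in CTEPH libraries and 10.16 ± 0.34 in Sham libraries (± SD of n = 5), a difference of 0.39 ± 0.27 (SE). MLYCD, the decarboxylase that removes malonyl-CoA, differed by -0.01 ± 0.32 (SE), but its CTEPH values were far apart, from 9.65 in s4 to 11.56 in s3. Its Sham values ran from 9.90 to 10.79.

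The carnitine shuttle moves the acyl group through the mitochondrial membranes. CPT1A and CPT1B encode the liver and the muscle form of carnitine palmitoyltransferase 1, the step that malonyl-CoA inhibits. CPT1A, on chromosome 2 from 4250642 to 4293914, had log2 values of 10.95, 10.64, 9.90, 11.12 and 10.85 in CTEPH libraries s1, s3, s4, s5 and s9. It had 9.17, 10.32, 10.49, 9.52 and 9.55 in Sham libraries s2, s6, s7, s8 and s10. In CTEPH 4 of 5 libraries were above every Sham library, and s4 was within the Sham range. The difference of 0.88 ± 0.28 (SE) did not pass over all genes (limma, BH, adjusted p = 0.0945). Without s4 it was 1.08 with a limma BH adjusted p of 0.0487. No other refit that left out 1 library passed, with limma BH adjusted p of 0.0631 to 0.192.

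CPT1B, on chromosome 5 from 155552 to 163536, had log2 values of 15.11, 15.24, 14.72, 15.20 and 14.59 in CTEPH libraries s1, s3, s4, s5 and s9. The Sham libraries s2, s6, s7, s8 and s10 had 15.41, 15.56, 15.36, 15.02 and 15.36. The groups overlapped through Sham library s8, and CTEPH libraries s4 and s9 were below every Sham library. The difference of -0.37 ± 0.16 (SE) did not pass (limma, BH, adjusted p = 0.222).

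Set against each other within a library, the CPT1 forms separated the groups. The pairs were chosen with earlier results of these data known, and the adjustment over 6 pairs does not cover that choice. The CPT1A value minus the CPT1B value was -4.16, -4.60, -4.82, -4.08 and -3.74 in CTEPH libraries s1, s3, s4, s5 and s9, against -6.24, -5.25, -4.87, -5.50 and -5.80 in Sham libraries s2, s6, s7, s8 and s10. All 5 CTEPH libraries were higher than every Sham library, though s4 and Sham library s7 nearly met. The mean was -4.28 ± 0.43 in CTEPH libraries and -5.53 ± 0.52 in Sham libraries (± SD of n = 5), a difference of 1.25 (two-sided exact permutation p = 0.00794, the smallest this design allows; adjusted p = 0.0476 over 6 pairs, BH). It no longer passed without CTEPH library s3, s4, s5 or s9 or Sham library s2 or s10, where the adjusted p of the exact test was 0.0714 to 0.0952 and the difference 1.07 to 1.39. The values depend on gene length, so only the difference between groups is read, not which form is more abundant.

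The rest of the shuttle was not called. CPT2, the inner membrane transferase, differed by 0.36 ± 0.21, the carnitine acetyltransferase gene CRAT by 0.27 ± 0.23 and the carnitine transporter gene SLC22A5 by -0.05 ± 0.28 (SE; limma, BH, adjusted p = 0.370, 0.552 and 0.944).

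The other pairs of related genes were compared in the same way, and none passed. ACACA minus ACACB was -2.46 ± 1.01 in CTEPH libraries and -3.87 ± 0.43 in Sham libraries (± SD of n = 5; exact permutation p = 0.0238, adjusted p = 0.0714 over the 6 pairs). CTEPH library s1, at -3.77, was the only CTEPH library within the Sham range of -4.32 to -3.23. Leaving out s1, the only overlapping library, sets the groups apart by construction. The difference was then 1.73 with an adjusted p of 0.0317 in the exact test, which lends the pair no support. Over the 10 refits that left out 1 library, the adjusted p of that test ran from 0.0317 to 0.190. ACADVL minus ACADM was 0.92 ± 0.47 in CTEPH libraries and 1.48 ± 0.25 in Sham libraries (± SD of n = 5; exact permutation p = 0.0635, adjusted p = 0.127). Again s1, at 1.73, was within the Sham range of 1.09 to 1.80, while the other 4 CTEPH libraries were below it. Leaving out s1 again sets the groups apart by construction. The difference was then -0.76 with an adjusted p of 0.0317 in the exact test, which lends this pair no support either. Over the 10 refits the adjusted p of that test ran from 0.0317 to 0.254.

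HADHA and HADHB, neighbours on chromosome 3 that encode the subunits of the trifunctional protein, differed from each other by -0.24 ± 0.10 in CTEPH libraries and -0.25 ± 0.18 in Sham libraries (± SD of n = 5; exact permutation p = 0.944, adjusted p = 0.944). ACSL4 minus ACSL1 and UCP2 minus UCP3 differed by 0.58 and -0.84 (exact permutation p = 0.159 and 0.333, adjusted p = 0.238 and 0.40).

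**Figure D2:**
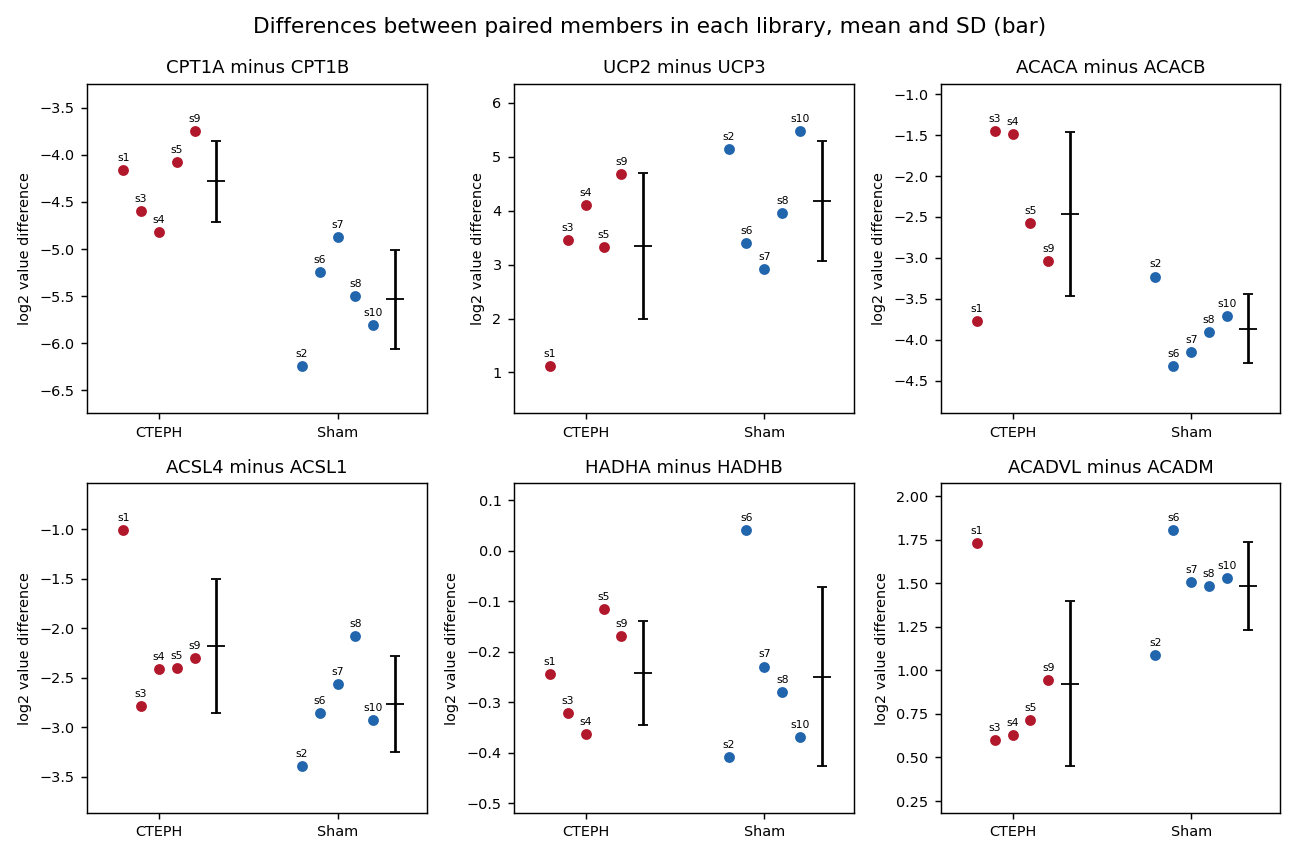
Log2 value of the first gene minus that of the second in each library (vertical axis), for 6 pairs, with CTEPH in red and Sham in blue and the mean and SD as a bar. In the CPT1A and CPT1B panel every CTEPH library is above every Sham library, and in the ACADVL and ACADM panel CTEPH library s1, at 1.73, is well above the other CTEPH libraries.

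Uptake brings fatty acids from the blood. LPL, the lipase that frees them from lipoproteins, had log2 values of 15.55, 15.79, 15.50, 15.37 and 15.32 in CTEPH libraries s1, s3, s4, s5 and s9, against 15.35, 15.24, 15.23, 14.99 and 15.14 in Sham libraries s2, s6, s7, s8 and s10. CTEPH library s9 was just below Sham library s2, and the other 4 CTEPH libraries were above every Sham library. The difference of 0.32 ± 0.13 (SE) did not pass (limma, BH, adjusted p = 0.202). FABP3, the heart fatty acid binding protein gene, had 15.60, 15.52, 15.38, 15.82 and 15.91 in CTEPH libraries s1, s3, s4, s5 and s9, against 15.55, 16.22, 16.12, 15.32 and 15.64 in Sham libraries s2, s6, s7, s8 and s10. The CTEPH values all lay within the Sham range, and the difference was -0.12 ± 0.19 (SE).

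The fatty acid transport protein gene SLC27A1 differed by -0.12 ± 0.12 and SLC27A6, another member of that family, by -1.01 ± 0.53 (SE; limma, BH, adjusted p = 0.648 and 0.311). SLC27A6 was read at low depth, with recovered counts of 90, 12, 62, 73 and 78 in CTEPH libraries s1, s3, s4, s5 and s9, against 162, 246, 94, 37 and 63 in Sham libraries s2, s6, s7, s8 and s10. These counts are known up to a common factor of 2. The groups overlapped, and the lowest value was that of CTEPH library s3.

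Activation by long-chain acyl-CoA synthetases held 5 genes, none of them called. ACSL1, the main form of heart muscle, had 13.44, 14.28, 13.71, 14.46 and 13.91 in CTEPH libraries s1, s3, s4, s5 and s9, against 14.66, 14.23, 14.09, 13.93 and 14.10 in Sham libraries s2, s6, s7, s8 and s10. CTEPH libraries s1, s4 and s9 were below every Sham library, s3 and s5 were within the Sham range, and the difference was -0.24 ± 0.20 (SE; limma, BH, adjusted p = 0.544). ACSL4, which prefers arachidonic acid, differed by 0.34 ± 0.21 (SE) and was highest in CTEPH library s1, at 12.43. ACSL3 and ACSL5 differed by 0.07 ± 0.18 and -0.01 ± 0.18, and ACSL6 by -0.71 ± 0.46 (SE). ACSL6 had recovered counts of 8 to 14 in CTEPH and 10 to 33 in Sham.

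Acyl-CoA dehydrogenases take the first oxidation of each cycle and differ in the chain length they accept. ACADM, the medium-chain enzyme gene on chromosome 6 from 137541481 to 137575544, had 13.74, 14.65, 14.28, 14.86 and 13.90 in CTEPH libraries s1, s3, s4, s5 and s9. Sham libraries s2, s6, s7, s8 and s10 had 14.18, 13.42, 14.05, 13.18 and 13.57. CTEPH libraries s3, s4 and s5 were above every Sham library, and s1 and s9 were within the Sham range. The difference of 0.61 ± 0.24 (SE) did not pass (limma, BH, adjusted p = 0.182).

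ACADVL, the very-long-chain enzyme gene, had 15.47, 15.25, 14.91, 15.57 and 14.85 in CTEPH libraries s1, s3, s4, s5 and s9, against 15.27, 15.22, 15.56, 14.66 and 15.10 in Sham libraries s2, s6, s7, s8 and s10. Of the CTEPH libraries only s5 was outside the Sham range, by a small margin above it, and the difference was 0.05 ± 0.19 (SE; 95% interval -0.37 to 0.46). ACAD10, a dehydrogenase family member, had 11.92, 11.83, 11.42, 11.29 and 11.43 in CTEPH libraries s1, s3, s4, s5 and s9, against 11.89, 11.89, 12.02, 11.93 and 11.76 in Sham libraries s2, s6, s7, s8 and s10. CTEPH libraries s4, s5 and s9 were below every Sham library and s1 and s3 among them, and the difference of -0.32 ± 0.14 (SE) did not pass (limma, BH, adjusted p = 0.228).

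The other dehydrogenase genes showed small differences. The long-chain enzyme gene ACADL was at 0.19 ± 0.17, the short-chain enzyme gene ACADS at -0.08 ± 0.18 and ACADSB, of branched short chains, at -0.17 ± 0.15 (SE). ACAD9, also an assembly factor of respiratory complex I, was at -0.01 ± 0.16 and ACAD11 at -0.23 ± 0.17 (SE). The adjusted p of these 5 genes was 0.495 to 0.990 (BH-adjusted limma test).

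The later steps of the cycle hydrate, oxidise and split the chain. HADHB, the thiolase subunit gene of the trifunctional protein, had 15.38, 16.30, 15.62, 15.91 and 15.41 in CTEPH libraries s1, s3, s4, s5 and s9, against 15.69, 15.25, 15.74, 15.10 and 15.50 in Sham libraries s2, s6, s7, s8 and s10. CTEPH libraries s3 and s5 were above every Sham library and the other 3 within their range. The difference was 0.27 ± 0.20 for HADHB and 0.28 ± 0.19 for HADHA (SE; limma, BH, adjusted p = 0.486 and 0.458).

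HADH, the dehydrogenase gene for medium and short chains, had 14.02, 14.35, 14.36, 14.16 and 14.23 in CTEPH libraries s1, s3, s4, s5 and s9, against 14.75, 14.35, 14.66, 14.23 and 14.74 in Sham libraries s2, s6, s7, s8 and s10. CTEPH libraries s1, s5 and s9 were below every Sham library, and s3 and s4 were level with Sham library s6. The difference of -0.32 ± 0.14 (SE) did not pass (limma, BH, adjusted p = 0.215). The hydratase gene ECHS1 differed by -0.13 ± 0.13, the mitochondrial thiolase gene ACAA2 by -0.01 ± 0.15 and the peroxisomal thiolase gene ACAA1 by 0.10 ± 0.13 (SE). The 95% interval of ACAA2 was -0.32 to 0.31.

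Auxiliary enzymes handle double bonds in the chain. DECR1, the dienoyl-CoA reductase gene needed for polyunsaturated chains, had 12.77, 13.17, 13.02, 13.41 and 13.36 in CTEPH libraries s1, s3, s4, s5 and s9, against 13.45, 12.92, 13.07, 13.06 and 13.22 in Sham libraries s2, s6, s7, s8 and s10. CTEPH library s1 was below the Sham range and the other 4 within it, and the 95% interval of the difference was -0.33 to 0.33. The enoyl-CoA isomerase genes ECI1 and ECI2 differed by -0.10 ± 0.16 and -0.03 ± 0.20 (SE). In all 3 of these genes the interval stayed within a 1.5-fold change.

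Electron transfer flavoprotein passes electrons from the dehydrogenases to the respiratory chain. ETFDH, the gene of the membrane enzyme that accepts them, had 14.29, 14.79, 14.26, 14.65 and 14.14 in CTEPH libraries s1, s3, s4, s5 and s9, against 14.21, 14.09, 14.42, 13.77 and 14.02 in Sham libraries s2, s6, s7, s8 and s10. CTEPH libraries s3 and s5 were above every Sham library. The difference of 0.33 ± 0.16 (SE) did not pass (limma, BH, adjusted p = 0.286), and the flavoprotein subunit genes ETFA and ETFB were at -0.15 ± 0.14 and -0.03 ± 0.16 (SE).

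Thioesterases free fatty acids from coenzyme A, and uncoupling proteins sit in the inner mitochondrial membrane. ACOT13 had 13.42, 12.94, 12.79, 12.73 and 13.57 in CTEPH libraries s1, s3, s4, s5 and s9, against 12.92, 13.33, 13.40, 13.33 and 13.28 in Sham libraries s2, s6, s7, s8 and s10. CTEPH libraries s1 and s9 were above every Sham library and s4 and s5 below every one, and the difference was -0.16 ± 0.18 (SE; limma, BH, adjusted p = 0.660).

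UCP2 and UCP3 are neighbours on chromosome 9, from 8358559 to 8364552 and from 8378023 to 8389452. UCP2, broadly expressed, had 9.81, 9.55, 9.07, 9.07 and 9.45 in CTEPH libraries s1, s3, s4, s5 and s9, against 8.64, 8.84, 9.65, 8.34 and 8.91 in Sham libraries s2, s6, s7, s8 and s10. Sham library s7 lay among the CTEPH values and the other 4 Sham libraries below all of them, and the difference of 0.51 ± 0.24 (SE) did not pass (limma, BH, adjusted p = 0.243). UCP3, the muscle form, had recovered counts of 204, 32, 25, 28 and 9 in CTEPH libraries s1, s3, s4, s5 and s9, against 6, 33, 38, 8 and 4 in Sham libraries s2, s6, s7, s8 and s10. CTEPH library s1 stood far above the other libraries, and the difference of 1.36 ± 0.78 (SE) did not pass (limma, BH, adjusted p = 0.360).

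**Figure D3:**
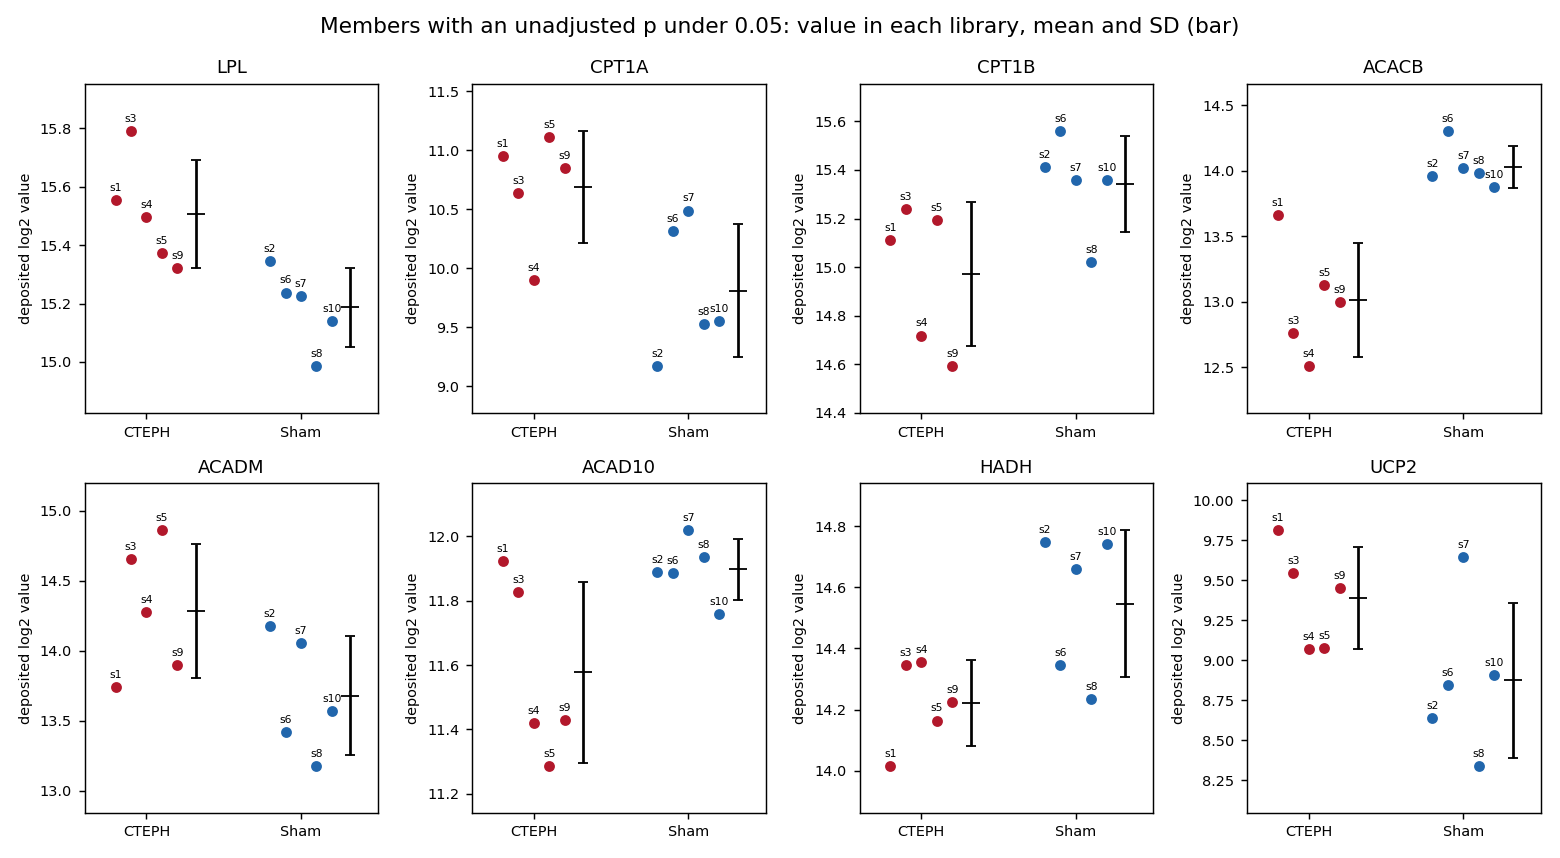
Deposited log2 value in each library (vertical axis, a separate scale in each panel) of the 8 genes with an unadjusted p under 0.05, with CTEPH in red, Sham in blue and the mean and SD as a bar. Only in ACACB do the groups not overlap, with CTEPH at 12.51 to 13.66 and Sham at 13.87 to 14.30.

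The mean over the 40 genes differed between pigs of 1 group, but UCP3, with few reads, weighed on it. UCP3 was at 8.69 in s1 and 3.42 in s10, beside a Sham mean of 4.70. The s1 and s10 means below come mostly from that gene, so they do not describe the whole route. The mean deviation of the 40 genes from their Sham means was 0.10, 0.11, -0.17, 0.07 and -0.0021 in CTEPH libraries s1, s3, s4, s5 and s9, against 0.05, 0.04, 0.19, -0.24 and -0.04 in Sham libraries s2, s6, s7, s8 and s10. The lowest library, s8, and the highest, s7, were both Sham. Without Sham library s8 the median difference over the 40 genes was -0.12. The SD was larger in CTEPH for 24 of the 40 genes, beside 69.6% of all genes, and its median was 0.29 in CTEPH and 0.28 in Sham. Over all genes the median SD was 0.38 in CTEPH and 0.28 in Sham.

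Single CTEPH pigs left the Sham range in different genes. Of the 40 genes, 17 were outside the Sham range in s1 (9 above and 8 below), 15 in s3 (11 and 4), 16 in s4 (3 and 13), 19 in s5 (10 and 9) and 9 in s9 (4 and 5). These shares were 42.5%, 37.5%, 40.0%, 47.5% and 22.5%, beside 49.0%, 50.2%, 50.9%, 50.9% and 49.8% of all genes in the same libraries. Chosen after their values were seen, CPT2, CRAT, HADHA, HADHB and ETFDH were above every Sham library in s3 and s5 alone. In s3 and s5 the values were 11.24 and 11.21 for CPT2, 14.32 and 14.18 for CRAT, and 15.98 and 15.79 for HADHA.

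**Figure D4:**
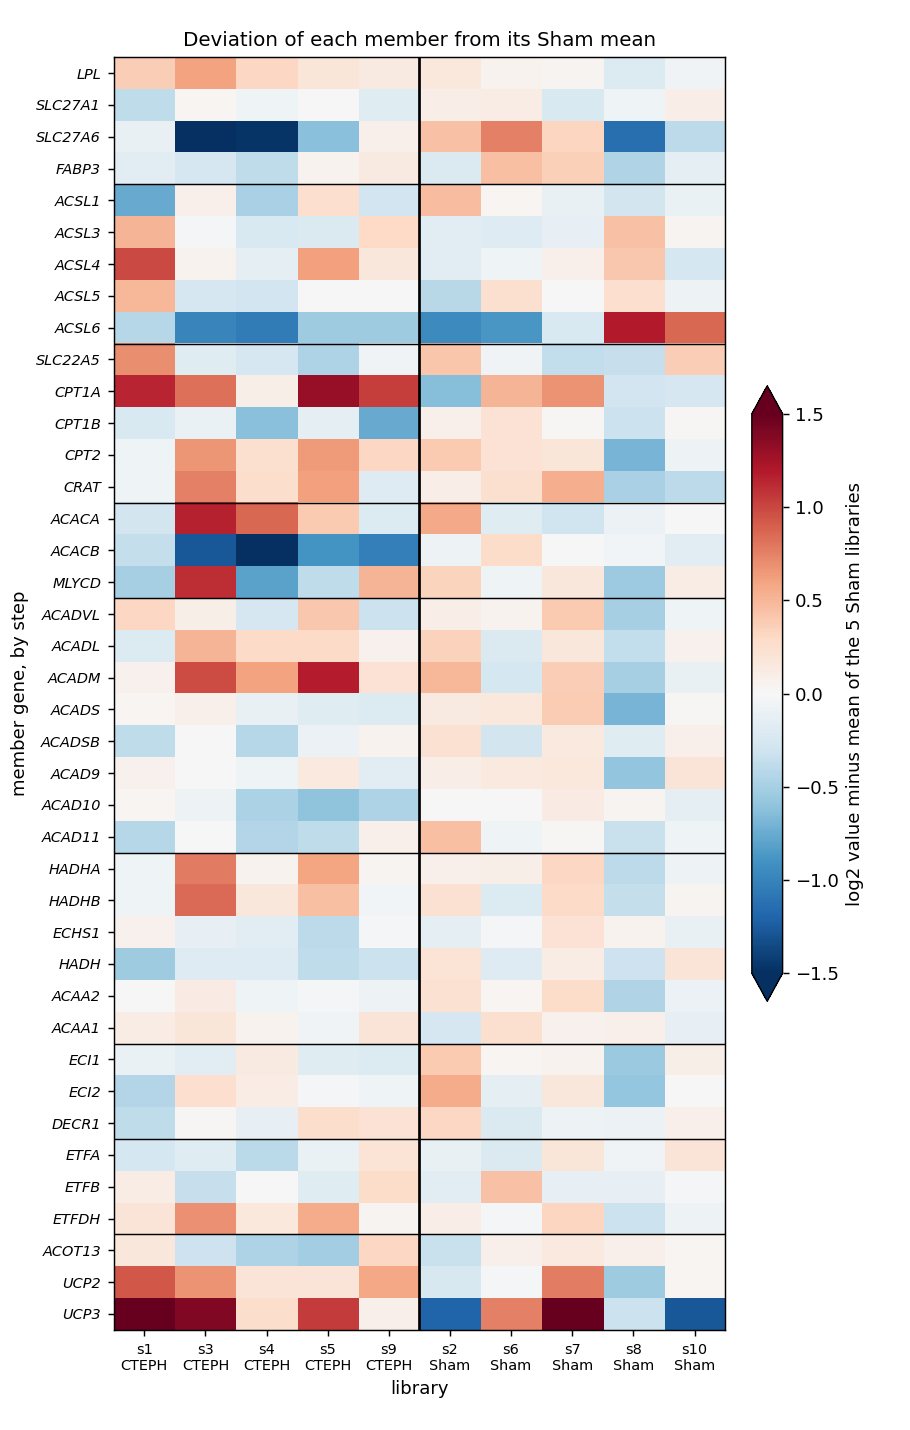
Log2 value of each of the 40 genes (down the page, lines between steps) minus its mean in the 5 Sham libraries, for the 5 CTEPH libraries on the left and the 5 Sham libraries on the right, with colours capped at 1.5 in either direction. The ACACB row is blue in all 5 CTEPH libraries, CPT1A is red in s1, s3, s5 and s9, and Sham library s8 is blue in most of the rows.

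Other genes of fatty acid use gave a similar count. Of 78 listed genes outside the 41, 69 were measured, 1 was called higher and 0 lower, against 2.83% and 1.79% of all genes, and their median difference was -0.03. The called gene was ACOT7, a thioesterase gene best known from brain. Its values were 6.04, 6.08, 6.37, 6.44 and 6.58 in CTEPH libraries s1, s3, s4, s5 and s9, against 4.12, 5.21, 3.75, 3.98 and 4.64 in Sham libraries s2, s6, s7, s8 and s10. All CTEPH libraries were above every Sham library, and ACOT7 rose by 1.96 ± 0.34 (SE; limma, BH, adjusted p = 0.00546). Its mean log2 value was low, at 5.32, among the lowest 25% of genes, so few reads stand behind this rise.

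The remaining genes with an unadjusted p under 0.05 did not pass over all genes. Closest was ABHD5, the activator of adipose triglyceride lipase, at 0.68 ± 0.18 (SE; limma, BH, adjusted p = 0.0537), with all 5 CTEPH libraries above every Sham library. The lipase gene itself, PNPLA2, was at -0.41 ± 0.17 and the monoglyceride lipase gene MGLL at -0.43 ± 0.19 (SE; limma, BH, adjusted p = 0.198 and 0.219). The coactivator gene PPARGC1B was at -0.63 ± 0.20 and the orphan receptor gene ESRRB at 1.07 ± 0.40 (SE; limma, BH, adjusted p = 0.0994 and 0.155).

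The other genes at that level were the acyl-CoA synthetase family gene ACSF2 (-0.45 ± 0.15), the transport protein family gene SLC27A3 (-0.65 ± 0.24), the peroxisomal transporter gene ABCD3 (0.33 ± 0.14) and the peroxisomal hydrolase gene NUDT7 (0.55 ± 0.19). The thioesterase gene ACOT11 was at -0.42 ± 0.17 and the mitochondrial dehydrogenase gene HSD17B10 at -0.44 ± 0.19. The adjusted p of these 6 genes was 0.104 to 0.214 (BH-adjusted limma test).

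PDK4, the kinase gene that restrains pyruvate oxidation, was at 1.63 ± 0.77 (SE; limma, BH, adjusted p = 0.254). Its values were 17.84, 14.13, 12.75, 13.04 and 14.29 in CTEPH libraries s1, s3, s4, s5 and s9, against 13.09, 13.69, 12.75, 12.80 and 11.59 in Sham libraries s2, s6, s7, s8 and s10. CTEPH library s1 stood far above all others. The carnitine-acylcarnitine carrier gene SLC25A20 was at 0.37 ± 0.19 (SE). The lipid-sensing receptor gene PPARA was at -0.30 ± 0.42 and the coactivator gene PPARGC1A at 0.16 ± 0.35 (SE), and the adjusted p of these 3 genes was 0.291 to 0.839 (BH-adjusted limma test). The fatty acid transporter gene CD36 found no match by symbol and was left out.

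Other cell types in the biopsy were followed by their markers. Of 10 macrophage markers 1 was called higher and 0 lower, with a summed level of 13.5 to 14.7 in CTEPH and 13.1 to 14.0 in Sham. Of 9 measured endothelial markers 0 were called higher and 1 lower, at 14.8 to 15.2 in CTEPH and 14.9 to 15.7 in Sham. Of 9 fibroblast markers 0 were called, at 17.0 to 18.0 in CTEPH and 17.0 to 17.8 in Sham. Of 8 smooth muscle and pericyte markers 1 was called higher, and all 6 measured cell division genes were called higher, at 10.7 to 12.5 in CTEPH and 7.93 to 8.47 in Sham. The part of these cells in the CPT1A and UCP2 differences was not tested.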

How the data were processed

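The authors deposited log2 values, 1 per gene and library. Per the submitters' processing notes, bcl2fastq 2.18.12, cutadapt 1.15, FastQC 0.11.5, featureCounts, edgeR 3.36.0, limma 3.50.0 and the build Sscrofa11.1 were used; the aligner, annotation, strand setting and low-count filter are not stated in the sources available. The labels give the molecule as polyA RNA but name a stranded kit for total RNA. Quantile normalization, which the nearly equal distributions show, hides a change shared by most genes. Low deposited log2 values were read back as whole counts c, from quantile means of log2(2c + 1), for 75.8% of values (tolerance 2e-08), tested on simulated data. Total counts are unknown.

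Symbols matched 12378 genes; coordinates are RefSeq gene spans on Sscrofa11.1, matched by symbol. The groups were set against each other by limma 3.58.1, run under R 4.3.3 (moderated variances with an intensity trend, two-sided, tested on simulated data), with Benjamini-Hochberg adjustment over all genes of the table. Within-library differences of 6 gene pairs were compared by exact permutation over 252 assignments. The genes, lists and pairs were chosen with earlier results of these data known. Values per library are given for genes with an unadjusted p under 0.05 and for the gene with the highest mean of each step; 1 other gene of fatty acid use is not reported here. Marker levels are log2 of summed linear values. Reads shared with near-identical gene copies, or with genes on the opposite strand, could not be assessed. Alternatives were variance models, library weights, a filter on the lowest 25% of genes, centring, depth as covariate, voom on recovered counts, exact permutation and leaving out each library.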

Additional observations from a re-analysis of the deposited data

Results flagged for a closer look

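A library far from the other 4 of its group was found in 6 of 124 groups of 5 values examined, and chance alone gives about 1 in 20. In Sham library s8, ACAD9 was at 10.36 on the log2 scale, while the other 4 Sham libraries were at 11.05 to 11.14. In Sham library s6, ETFB was at 13.63, against 13.03 to 13.16 in the others. Sham library s2 stood apart in ACOT13, at 12.92 against 13.28 to 13.40, and in MGLL, at 14.50 against 13.57 to 13.82. In Sham library s7, PPARGC1A was at 13.43, against 12.30 to 12.61 in the other Sham libraries. In CTEPH library s1, the ACSL4 value minus the ACSL1 value was -1.01, against -2.78 to -2.30 in the other CTEPH libraries.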

How the results depend on the processing

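ACACB and ACOT7 remained called in every alternative that tested them over all genes, the filter aside for ACOT7. No gene of the 20 with an unadjusted p under 0.05 changed direction under any alternative. The variance models, the filter and exact permutation keep the same difference, so they could not change its direction. The count of genes of the route at an unadjusted p under 0.05 was 8, but 4 without the intensity trend and 3 to 7 when 1 library was left out. Called genes of the route numbered 1, and 1 to 2 without 1 library, CPT1A joining without CTEPH library s4. All called genes numbered 723, but 1269 with library weights (722 higher, 547 lower) and 401 to 961 without 1 library, the lowest without CTEPH library s4. Of the other genes of fatty acid use, 1 was called, but 0 without the lowest 25% of genes, which leaves ACOT7 out, and 2 with centring on cardiomyocyte markers, where ABHD5 passed. The CPT1A and CPT1B difference was 1.07 to 1.42 without 1 library, and 1.34 between medians (exact permutation, adjusted p = 0.143); the cause was not tested. Without 1 library the differences were 1.146 to 1.73 for ACACA and ACACB, -0.76 to -0.48 for ACADVL and ACADM, and -0.033 to 0.079 for HADHA and HADHB, where 5 of 10 refits changed sign. Voom gave values for 9 genes of the route. No paired analysis was made because the labels give no pairing of CTEPH and Sham pigs. Low counts limit UCP3, SLC27A6, ACSL6, SLC22A5 and ACOT7.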

Other observations

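CTEPH library s1 stood apart in single genes, chosen after their values were seen. The lipid droplet coat gene PLIN2 was at 12.96 in s1, at 10.74 to 11.58 in the other CTEPH libraries and at 10.43 to 11.20 in Sham. GPAM, of glycerolipid synthesis, was at 11.95 in s1, at 9.14 to 9.63 in the other CTEPH libraries and at 9.48 to 10.52 in Sham. Other lipid genes were lowest in s1. PLIN4 did not stand apart, at 11.75 in s1, 11.80 to 12.78 in the other CTEPH libraries and 12.69 to 14.10 in Sham. The acetyl-CoA synthetase gene ACSS2 was at 10.46 in s1, 11.34 to 12.28 in the other CTEPH libraries and 10.88 to 12.16 in Sham. The macrophage marker CD163 was also highest in s1, at 12.54, with 10.54 to 10.96 in the other CTEPH libraries and 9.72 to 10.62 in Sham.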
